A study of Mus musculus with 9 samples.

Results

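The 10 genes described here encode the core transcription factors of heart muscle, namely Gata4, Nkx2-5, Mef2a, Mef2c, Mef2d, Tbx5, Tbx20, Hand2, Srf and Myocd. They were taken by symbol from the 54532 genes of a count table of mouse heart RNA, and all 10 passed the filter on low counts in every comparison. The table holds 9 libraries from wild-type C57BL/6J mice, all male and between 8 and 10 weeks old, with 3 mice in each of 3 groups. The sham group had surgery without ischemia and carries the treatment label "not". In the MIRI group, the left anterior descending coronary artery was tied for 30 min and then released for 24 h of reperfusion, with saline given as vehicle. The GXNI group had the same ischemia and reperfusion (I/R) and was injected through the tail vein with Guanxinning injection, a preparation from medicinal herbs, at 9 mL/kg. The comparisons ask how I/R altered the expression of these factors and whether GXNI altered it further.

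These factors bind one another and share regulatory elements of contractile, ion channel and natriuretic peptide genes. GATA4 is a zinc finger protein, NKX2-5 a homeodomain protein, TBX5 and TBX20 are T-box proteins, and HAND2 is a basic helix-loop-helix protein. SRF and the MEF2 proteins belong to the MADS-box family. SRF binds the CArG box, while myocardin, the product of Myocd, binds no CArG box itself and acts as a coactivator of SRF in cardiac and smooth muscle.

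The libraries held between 17119454 and 22811295 counts, and 3 counts made 0.132 to 0.175 CPM, a unit of counts relative to the library total. The labels give the cell type as cardiomyocytes and the tissue as heart. All 10 cardiomyocyte markers were detected in every library, with a summed level of 46000 to 49120 CPM in sham, 33750 to 51660 CPM in MIRI and 35240 to 41400 CPM in GXNI hearts, but so were all 8 endothelial, 8 fibroblast and 10 neutrophil markers, so these are libraries of whole tissue. In such libraries, fewer cells of a type and less RNA per cell cannot be told apart. The libraries labelled MIRI 2 and GXNI 1 stood apart from the rest of their groups. On the first principal component, which carried 64.7% of the variance over 15207 genes, they scored -44.4 and -43.5, beside -59.8 to -52.2 in sham hearts, while MIRI 1, MIRI 3, GXNI 2 and GXNI 3 scored between 18.7 and 94.4. The summed neutrophil level was 30.1 to 60.9 CPM in sham hearts, 28.0 CPM in MIRI 2 and 50.4 CPM in GXNI 1, against 764, 707, 232 and 740 CPM in MIRI 1, MIRI 3, GXNI 2 and GXNI 3. Earlier results of these data raised the possibility that the labels of MIRI 2 and GXNI 3 were exchanged, which was not tested here. All libraries were kept under their labels, and every value that sets MIRI or GXNI alone against sham, or GXNI against MIRI, rests on these labels. The 6 I/R hearts were first compared together with sham, a comparison that does not depend on how they are divided between MIRI and GXNI, and each library was left out in turn.

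Srf was the only 1 of the 10 members that passed the thresholds given below between I/R and sham hearts, beside 8.38% of all genes tested. Its promoter also carries the element its protein binds, and a link between this element and the Srf level was not tested. Such a match was not particular to Srf. Mef2a, which was not called, held a match to the motif searched for the MEF2 proteins. Matches to other searched motifs were found in Hand2 and Mef2c, which were not called either. The Srf gene lies on the minus strand of chromosome 17 from 46548329 to 46556175 (GRCm38, the same sequence build as mm10). The bases just before its RefSeq start, chr17:46556163-46556412 on the minus strand of GRCm38.p6, are shown because Srf is the only one of the 7 members with a RefSeq promoter sequence at hand that held a CArG box there. The capitals mark both boxes, CC and GG with 6 A or T bases between them, which begin 82 and 62 bases before the start.

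Srf: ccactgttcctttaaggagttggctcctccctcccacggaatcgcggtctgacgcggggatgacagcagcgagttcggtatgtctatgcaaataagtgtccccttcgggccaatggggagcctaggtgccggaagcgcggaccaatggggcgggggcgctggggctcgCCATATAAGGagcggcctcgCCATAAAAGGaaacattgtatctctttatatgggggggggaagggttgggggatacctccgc

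A CArG box was found in 1.63% of 32851 RefSeq promoter windows of the same kind, each from 250 bases before to 50 bases after a start. This box reads the same kind of sequence on either strand. A match describes the letters in the window and not binding in these hearts. Promoter sequences of Gata4, Tbx5 and Myocd were not used here.

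The Srf level was 74.3, 81.6 and 87.5 CPM in sham hearts 1 to 3. It was 116, 121 and 148 CPM in MIRI hearts 1 to 3, and 99.1, 132 and 115 CPM in GXNI hearts 1 to 3. Every I/R heart was above every sham heart, including MIRI 2 and GXNI 1, in which neutrophil markers were at the sham level. The means were 81.1 ± 6.65 CPM in sham (SD, n = 3), 128 ± 17.3 CPM in MIRI (n = 3) and 115 ± 16.7 CPM in GXNI hearts (n = 3). Genes with a fold change of 1.5 or more and an unadjusted P-value of 0.01 or less were called. By the quasi-likelihood test of edgeR, Srf was higher in I/R than in sham hearts by 0.59 on the log2 scale (SE 0.14, unadjusted P = 0.00159, adjusted P = 0.0852), a fold change just past the threshold. Srf was the only one of the 10 members called, beside 8.38% of all 15207 genes tested (5.52% higher and 2.85% lower). The call was lost without sham 1 (0.53, unadjusted P = 0.0108), without MIRI 3 (0.53) and without GXNI 2 (0.56), each under the fold threshold. At an adjusted P of 0.05 it was also lost by edgeR, where 9 of all 15207 genes passed. By DESeq2, Srf was at 0.59 (unadjusted P = 0.000134, adjusted P = 0.00474), and 2170 genes passed an adjusted P of 0.05. The exact permutation test over the libraries gave P = 0.0238, the smallest that 6 hearts against 3 can give. Compared with the sham group, Srf rose in the MIRI group by 0.67 (SE 0.15, unadjusted P = 0.00263, adjusted P = 0.0767, edgeR), where 8.97% of the genes were called (6.15% higher and 2.82% lower). That call was lost without sham 1, sham 2 or MIRI 3. In the GXNI group, the difference from sham was 0.52 (SE 0.15, unadjusted P = 0.0107, adjusted P = 0.219, edgeR), which did not pass, and 0.62 without GXNI 1, which did. The MIRI and GXNI comparisons share their sham hearts.

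**Figure D1:**
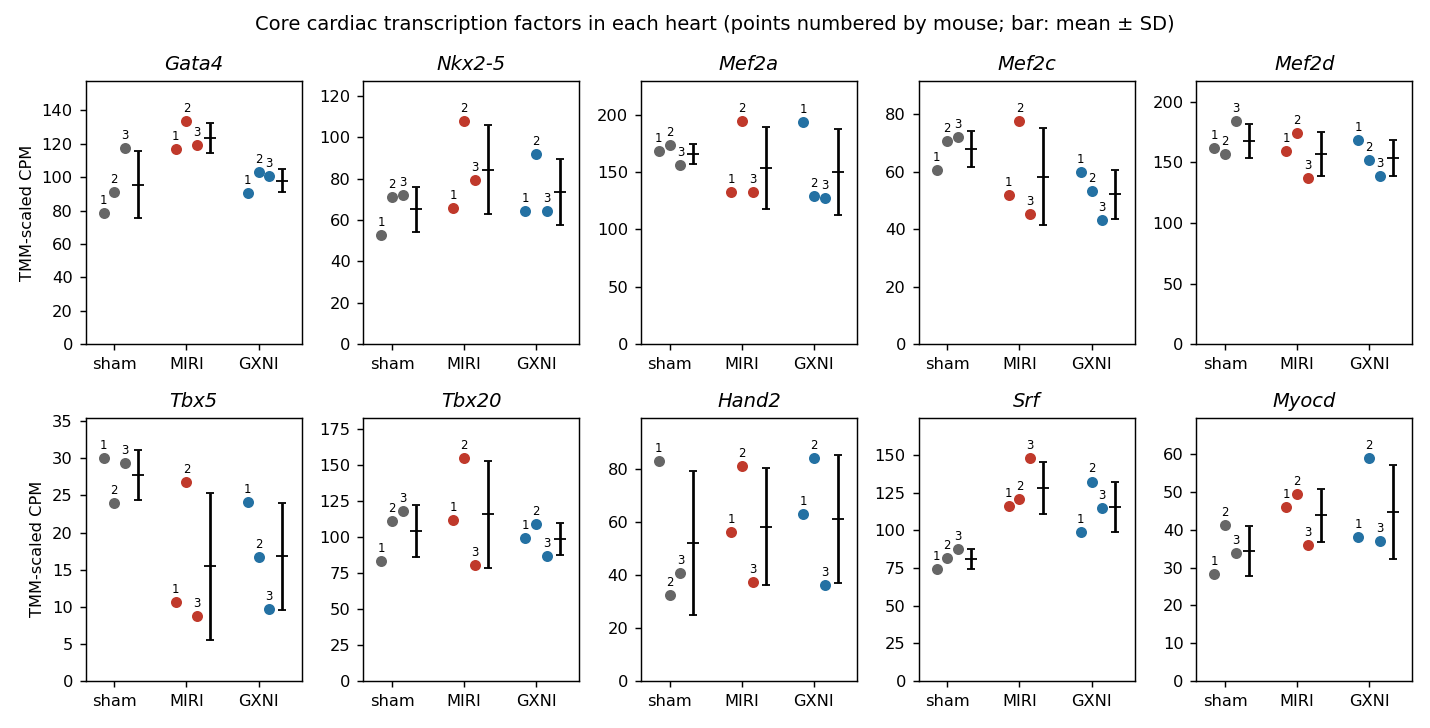
Level of each of the 10 factors in TMM-scaled CPM (vertical axes from 0) by group (horizontal axes), with 1 point per heart numbered as in the labels and the mean ± SD (n = 3) beside the points. For Srf, the 6 I/R hearts sit between 99.1 and 148 CPM, all above the sham hearts, while Tbx5 is lowest in MIRI 1, MIRI 3 and GXNI 3.

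Myocd, the coactivator of SRF, showed a difference of the same sign that did not pass the test. It was measured at 28.2, 41.4 and 34.0 CPM in sham hearts, 46.1, 49.4 and 36.0 CPM in MIRI hearts and 38.1, 59.1 and 37.0 CPM in GXNI hearts. The I/R hearts overlapped with sham 2, and GXNI 2 was the highest. The difference between I/R and sham was 0.36 (SE 0.19, unadjusted P = 0.0878, adjusted P = 0.224, edgeR), with a 95% interval from -0.064 to 0.78.

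Of the T-box genes, Tbx5, which is needed for atrial and left ventricular development and for the conduction system, had the largest difference of all members in size. It lies on the plus strand of chromosome 5 from 119832668 to 119885219. Its level was 30.1, 23.96 and 29.4 CPM in sham hearts, 10.7, 26.8 and 8.79 CPM in MIRI hearts and 24.1, 16.7 and 9.70 CPM in GXNI hearts. MIRI 2 and GXNI 1 lay within the sham range, and the other 4 I/R hearts lay below it. Over all I/R hearts the difference from sham was -0.79 (SE 0.36, unadjusted P = 0.0519, adjusted P = 0.173, edgeR), with an interval from -1.58 to 0.0079, and Tbx5 was not called. In the MIRI group it was -0.85 (unadjusted P = 0.0749) and in the GXNI group -0.71 (unadjusted P = 0.0577). Over all I/R hearts, Tbx5 was not called with any single heart left out (smallest unadjusted P = 0.0128, without MIRI 2, edgeR). In the MIRI and GXNI groups taken alone, a single library decided the call. Without MIRI 2, which left MIRI 1 and MIRI 3 against the sham hearts, the difference was -1.51. It was called (unadjusted P = 2.62e-05, adjusted P = 0.000569, edgeR), in a fit that called 13.3% of all genes lower. Without GXNI 1, which left GXNI 2 and GXNI 3 against the sham hearts, the difference was -1.06. This was called too (unadjusted P = 0.0055, adjusted P = 0.0402, edgeR), in a fit that called 7.08% of all genes lower. The 3 hearts with the lowest Tbx5, MIRI 1, MIRI 3 and GXNI 3, were also those with the highest summed neutrophil markers and with cardiomyocyte marker sums of 33750, 37310 and 35240 CPM, below every sham heart. The cardiomyocyte sums of GXNI 2 and GXNI 1, at 36460 and 41400 CPM, were also below every sham heart, although Tbx5 in GXNI 1 lay within the sham range, and only MIRI 2 among the I/R hearts was above sham, at 51660 CPM. The part of these cells in the Tbx5 levels was not tested. Tbx20, a regulator of cardiomyocyte growth and of the valves, showed no such pattern. It stood at 83.4, 111 and 118 CPM in sham, 112, 155 and 80.7 CPM in MIRI and 99.5, 109 and 87.0 CPM in GXNI hearts, with MIRI 2 the highest and MIRI 3 the lowest. The difference between I/R and sham was 0.041 (interval -0.42 to 0.50).

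Gata4, which controls cardiac growth and stress genes, lies on the minus strand of chromosome 14 from 63198922 to 63271692. Its level was 78.4, 90.9 and 117 CPM in sham hearts, 117, 134 and 119 CPM in MIRI hearts and 90.3, 103 and 101 CPM in GXNI hearts. The MIRI hearts were all above the GXNI hearts, while the sham hearts reached from below the GXNI range into the MIRI range. Gata4 was not called between I/R and sham (0.21, SE 0.16, unadjusted P = 0.221, edgeR) nor between MIRI and sham (0.37, unadjusted P = 0.0684). Nkx2-5, an early marker of the cardiac lineage that remains expressed in adult heart muscle, was 52.7, 71.1 and 72.1 CPM in sham, 65.7, 108 and 79.5 CPM in MIRI and 64.4, 92.1 and 64.6 CPM in GXNI hearts. Its groups overlapped, with the highest value in MIRI 2, and the difference between I/R and sham was 0.28 (SE 0.20, unadjusted P = 0.193, edgeR).

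Hand2, a factor of right ventricular and sympathetic development, varied more within a group than any other member did in sham hearts. It was 83.3, 32.3 and 40.8 CPM in sham, 56.4, 81.2 and 37.4 CPM in MIRI and 63.1, 84.3 and 36.2 CPM in GXNI hearts. The highest sham heart exceeded the lowest 2.58-fold, and the difference between I/R and sham was 0.20 with an interval from -0.61 to 1.003. Hand2 lies on the plus strand of chromosome 8 from 57320983 to 57324633. It shares 461 bases, 19.6% of its exons, with Hand2os1, a noncoding RNA of the opposite strand. The strand setting of the counting was not given in the sources used here, so reads of the shared bases cannot be told apart and the Hand2 level is uncertain. Hand2os1 itself was counted at 92.1, 59.4 and 69.6 CPM in sham, 43.4, 69.0 and 20.7 CPM in MIRI and 89.5, 69.3 and 23.3 CPM in GXNI hearts. MIRI 3 and GXNI 3 were the lowest for Hand2os1. Smaller shares of exons overlapped opposite-strand genes in Mef2d (8.87%, 1700113A16Rik) and Mef2a (2.06%, Lysmd4).

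The 3 MEF2 genes, which respond to calcium and kinase signaling in muscle, were not called in any of the 4 comparisons. Mef2a was 168, 173 and 157 CPM in sham, 133, 194 and 133 CPM in MIRI and 193, 129 and 128 CPM in GXNI hearts, so that MIRI 2 and GXNI 1 were above and the other 4 I/R hearts below the sham range. Mef2c was 60.7, 70.6 and 72.0 CPM in sham, 52.0, 77.5 and 45.4 CPM in MIRI and 60.0, 53.1 and 43.2 CPM in GXNI hearts. For Mef2c, too, the highest heart was MIRI 2, and the GXNI hearts all lay below sham, with GXNI 1 close to the lowest sham heart. Mef2d was steadier, at 157 to 184 CPM in sham, 137 to 174 CPM in MIRI and 139 to 169 CPM in GXNI hearts. The differences between I/R and sham were -0.13 for Mef2a (interval -0.51 to 0.26), -0.30 for Mef2c (-0.70 to 0.10) and -0.11 for Mef2d (-0.37 to 0.14). As a share of the summed MEF2 counts within each library, which needs no scaling between libraries, Mef2a made up 41.4% ± 2.99 in sham and 41.6% ± 2.81 in I/R hearts (SD, n = 3 and 6). The share of Mef2c was 16.9% ± 1.17 and 15.2% ± 1.30 (exact permutation P = 0.119), and that of Mef2d 41.8% ± 2.72 and 43.2% ± 3.01 (exact permutation P = 0.524).

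**Figure D2:**
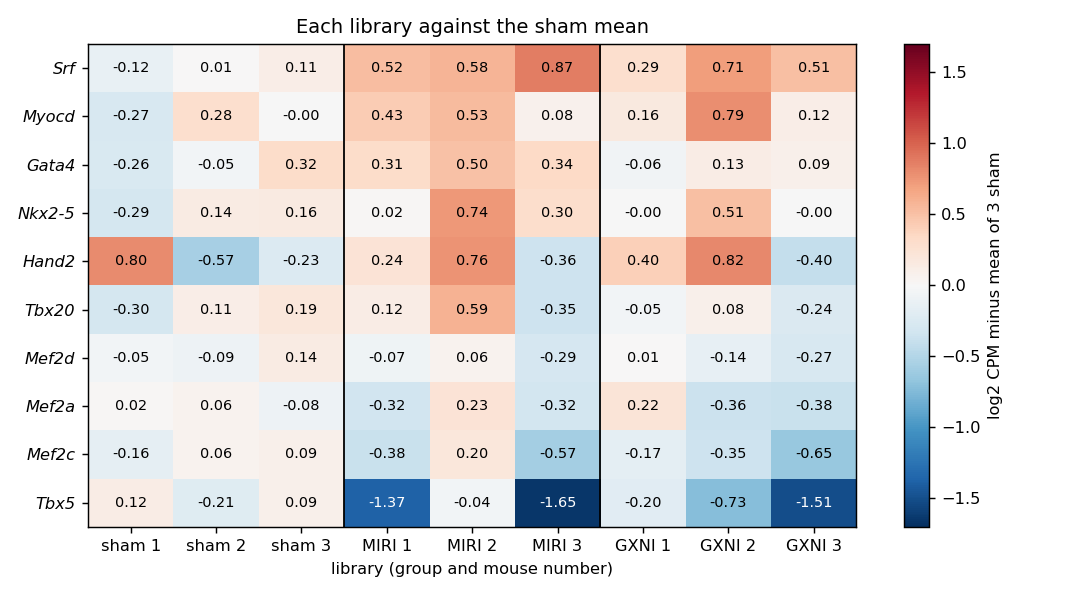
Difference of each library (columns) from the mean of the 3 sham hearts in log2 CPM (color and printed number) for the 10 factors (rows). Srf is above 0 in all 6 I/R hearts, from 0.29 to 0.87, and Tbx5 ranges from -0.04 in MIRI 2 to -1.65 in MIRI 3.

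When the groups were compared by their ranges alone, Srf was the only member whose I/R hearts all lay on the same side of the sham hearts without overlap, a pattern found in 16.9% of all genes tested (8.4% higher and 8.46% lower). Between MIRI and sham it was again Srf alone whose hearts all lay on one side, beside 33.7% of all genes (17.4% higher and 16.2% lower). Between GXNI and sham, where edgeR called none of the members (1 at an unadjusted P under 0.05, 0 called by DESeq2) and 4.21% of all genes (2.67% higher and 1.54% lower), Srf lay above and Mef2c below sham without overlap, beside 29.4% of all genes (13.8% higher and 15.6% lower). The difference of Mef2c there was -0.37 (SE 0.16, unadjusted P = 0.0517, adjusted P = 0.254, edgeR).

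Between the GXNI and MIRI groups, no member was called by edgeR or by DESeq2 and none had an unadjusted P under 0.05 by edgeR, while 0.0203% of all genes were called. The smallest P was that of Gata4, at -0.32 (SE 0.15, unadjusted P = 0.0713, adjusted P = 1, edgeR), with an interval from -0.68 to 0.037. Its 3 GXNI hearts lay below its 3 MIRI hearts, for which the exact permutation test gives P = 0.1, the smallest for 3 against 3, and a lack of overlap was found in 2.7% of all genes (1.21% higher and 1.49% lower). The value was between -0.36 and -0.26 with any 1 heart left out. For Srf the difference was -0.14 with an interval from -0.58 to 0.29, and for Myocd 0.037 (-0.54 to 0.62). For Tbx5 it was 0.14 with an interval from -1.10 to 1.37, and for Tbx20 -0.23 (-0.86 to 0.40). Nkx2-5 differed by -0.19 (-0.78 to 0.41) and Hand2 by 0.076 (-0.86 to 1.01). The intervals of Mef2a (-0.64 to 0.59), Mef2c (-0.76 to 0.45) and Mef2d (-0.44 to 0.39) also included 0. Differences of the sizes inside these intervals are not shown to be absent. The Tbx5 value rested on which hearts were included. With MIRI 2 and GXNI 3 both left out, Tbx5 was higher in GXNI than in MIRI hearts by 1.08 and was called (unadjusted P = 0.00591, adjusted P = 0.189, edgeR), with 2 hearts left in each group and 1.52% of all genes called higher. The 2 hearts left in each group were then MIRI 1 and 3, at 10.7 and 8.79 CPM, and GXNI 1 and 2, at 24.1 and 16.7 CPM.

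**Figure D3:**
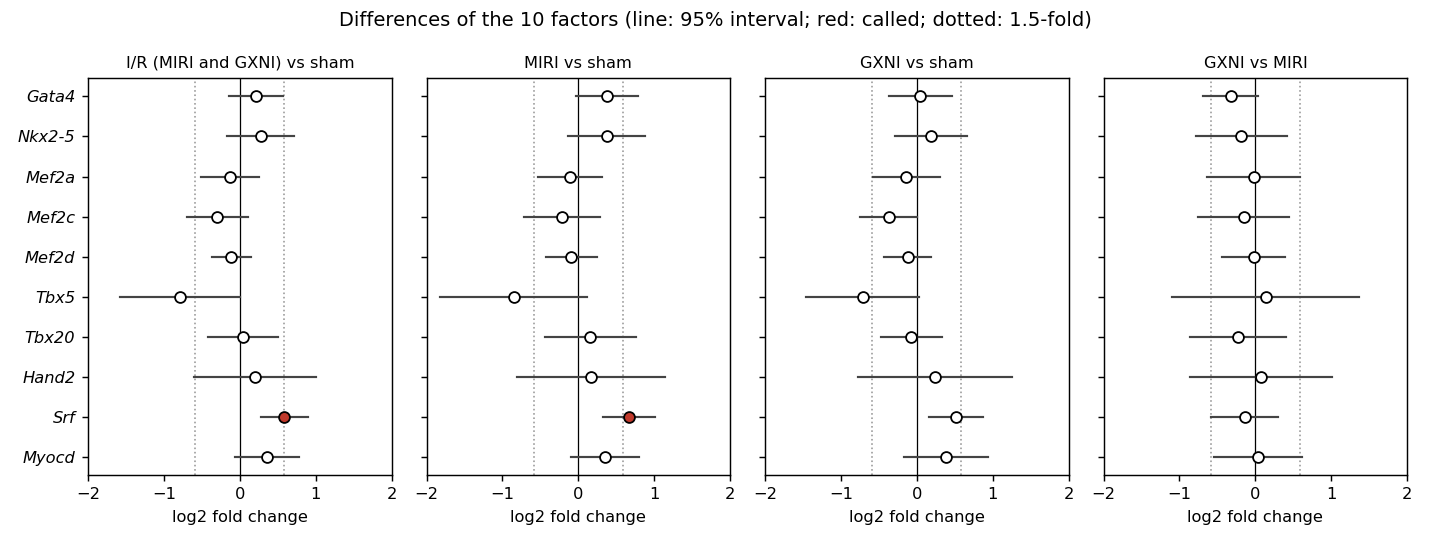
Log2 fold change (horizontal axes) of the 10 factors in the 4 comparisons by edgeR, with 95% intervals as lines, called genes in red and the 1.5-fold threshold dotted. Srf is called in all I/R hearts and in MIRI hearts against sham, at 0.59 and 0.67, and no factor is called between GXNI and MIRI.

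Since most of these factors are expressed by cardiomyocytes, each was also set against the mean log2 CPM of the 10 cardiomyocyte markers within its library. This mean was 11.8 to 11.9 in sham, 11.4 to 11.96 in MIRI and 11.5 to 11.6 in GXNI hearts. A lower marker mean raises the relative value of every member alike. The markers did not move alike, with Myh6 at -0.73 and Actc1 at 0.54 between I/R and sham, neither called. Myh6 and Actc1 also count among the cardiomyocyte target genes examined below. Relative to the markers, Srf was higher in I/R hearts by 0.80 on the log2 scale, Myocd by 0.57 and Nkx2-5 by 0.48. In log2 CPM alone these differences were 0.58, 0.35 and 0.26, and only Srf lay wholly above sham. On the relative scale every I/R heart was above every sham heart for these 3 genes (exact permutation P = 0.0238 for each, the smallest possible, 10 genes tested). That pattern was found in 10.5% of all genes on the relative scale, with 3.37% wholly below sham. Gata4 was higher by 0.44 and Tbx5 lower by 0.70 (exact permutation P = 0.0476 for each), with overlapping ranges. The relative differences were 0.46 for Hand2, 0.24 for Tbx20, 0.10 for Mef2d, 0.064 for Mef2a and -0.10 for Mef2c, with exact permutation P-values from 0.19 to 0.786. With the median of the markers in place of the mean, Gata4 (P = 0.0714) and Tbx5 (P = 0.0952) no longer passed 0.05 in the exact permutation test and Tbx20 did (P = 0.0476).

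Per length, as CPM per kilobase (kb) of merged exons, Nkx2-5 had the highest mean level of the 10 factors in every group, at 38.0 ± 6.36 in sham, 49.1 ± 12.5 in MIRI and 42.9 ± 9.25 in GXNI hearts (SD, n = 3). In sham hearts it was followed by Mef2d at 28.1, Srf at 28.0, Gata4 at 24.5 and Hand2 at 22.2 CPM per kb. Neighbouring ranges among these 5 genes overlapped. A gap separated them from Mef2a at 11.3 CPM per kb and Tbx20 at 8.68, which did not overlap with each other, and from Tbx5 at 5.95, Myocd at 5.37 and Mef2c at 4.31, whose neighbouring ranges overlapped. Thus within the MEF2 family, Mef2d was the highest per length although its counts were close to those of Mef2a, whose merged exons are longer (14681 against 5985 bases). Merged exons cover all annotated transcripts of a gene. The transcripts made in these hearts were not examined, so the order per length rests on the annotation. In MIRI hearts Srf came next to Nkx2-5 at 44.4 ± 5.96 CPM per kb, above Gata4 at 31.6 without overlap, and in GXNI hearts it was at 39.9 ± 5.76. Tbx5 stood last in MIRI hearts at 3.30 ± 2.12 CPM per kb. The order in each group was the same with library totals in place of TMM scaling, although Nkx2-5 and Mef2d in sham hearts then did not overlap.

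**Figure D4:**
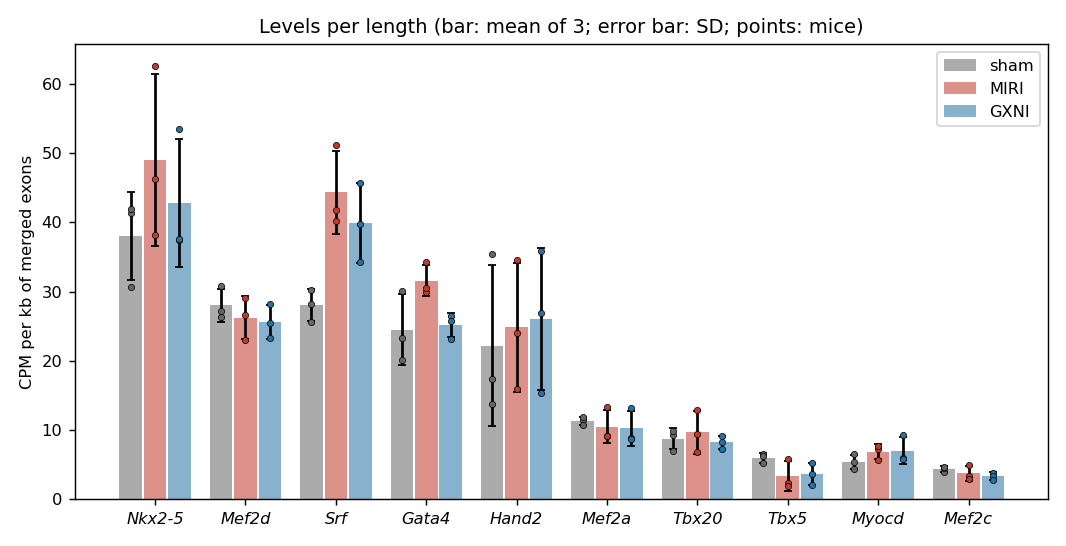
Level per length (vertical axis, CPM per kb of merged exons) of the 10 factors in sham order, with bars for the mean of 3 hearts, error bars for the SD and points for the hearts. Nkx2-5 is highest in each group, and Srf rises in the order from 28.0 CPM per kb in sham to 44.4 in MIRI, next to Nkx2-5.

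Genes known as targets of these factors were then examined in lists of immediate early, smooth muscle and cardiomyocyte genes. Of the 12 immediate early genes that SRF controls with its ternary complex and myocardin-related partners, a list that includes Srf itself, 10 rose in I/R hearts and 0 fell, with a median log2 fold change of 2.68 against 0.0077 over all genes tested, of which 5.52% were called higher. The largest rises were those of Fosb (4.21, SE 1.03, unadjusted P = 0.00227, adjusted P = 0.0852), which encodes a subunit of the AP-1 factor, of Egr2 (4.07, SE 0.94, unadjusted P = 0.00158, adjusted P = 0.0852), a zinc finger factor, and of Ccn2 (3.47, SE 0.63, unadjusted P = 0.00027, adjusted P = 0.0579), a matricellular protein, all by edgeR. Fosb was 0.215 to 0.586 CPM in sham hearts, 10.02, 1.01 and 12.6 CPM in MIRI hearts and 1.998, 4.78 and 20.1 CPM in GXNI hearts. Ccn2 was 33.4 to 48.0 CPM in sham, 657, 249 and 704 CPM in MIRI and 131, 222 and 745 CPM in GXNI hearts. Both were above sham in all 6 I/R hearts, including MIRI 2 and GXNI 1. MIRI 2 was the lowest MIRI heart and GXNI 1 the lowest GXNI heart for both genes. Leaving out any 1 of the 9 hearts left between 3 and 11 of the 12 called, the lowest without sham 1. The count was 5 without sham 2 or sham 3 and 6 without MIRI 1, MIRI 3 or GXNI 3. It was 11 without MIRI 2 or GXNI 1, and 0 at an adjusted P of 0.05 by edgeR. In the MIRI group 9 of the 12 and in the GXNI group 6 of the 12 were called higher than in the same sham hearts, beside 6.15% and 2.67% of all genes. Between GXNI and MIRI 0 were called (0 at an unadjusted P under 0.05), beside 0.0203% of all genes.

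Among the 12 smooth muscle targets of SRF and myocardin, Vcl, which encodes the adhesion protein vinculin, was called higher in I/R hearts (0.89, SE 0.20, unadjusted P = 0.00121, adjusted P = 0.0852, edgeR). It was the only 1 of the 12 called higher and 0 were called lower, beside 5.52% and 2.85% of all genes. The median of the list was -0.037. Acta2, the smooth muscle actin, was at 0.86 (unadjusted P = 0.0109) and was not called, though it was called in MIRI against sham at 1.15 (SE 0.18, unadjusted P = 0.000371, adjusted P = 0.0607, edgeR). In MIRI hearts 2 of the 12, Acta2 and Vcl, were called higher, beside 6.15% of all genes. In GXNI hearts 0 were called against the same sham hearts (1 at an unadjusted P under 0.05 by edgeR), beside 4.21% of all genes. Leaving out 1 heart gave 1 or 2 called higher in I/R hearts. Myh11, the smooth muscle myosin, was at -0.69 (unadjusted P = 0.126). The summed smooth muscle and pericyte markers, which share genes with this list, were at 695 to 874 CPM in sham, 546 to 826 CPM in MIRI and 532 to 822 CPM in GXNI hearts.

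Of 26 cardiomyocyte targets, 5 rose in I/R hearts and 0 fell, with a median of -0.0058, beside 5.52% of all genes called higher. In the MIRI group 8 and in the GXNI group 1 of the 26 were called higher than in the same sham hearts, beside 6.15% and 2.67% of all genes. Between GXNI and MIRI 0 were called by edgeR (0 at an unadjusted P under 0.05), beside 0.0203% of all genes. Among the 5 that rose in I/R hearts were Nppb (4.35, SE 1.27, unadjusted P = 0.00668, adjusted P = 0.0914), which encodes brain natriuretic peptide, Xirp2 (2.80, SE 0.67) and Xirp1 (1.96, SE 0.54), which encode actin-binding proteins of the intercalated disc, and Ankrd1 (1.81), a stress-induced ankyrin repeat protein, by edgeR. Nppb was 10.6, 68.9 and 87.3 CPM in sham, 1466, 608 and 1896 CPM in MIRI and 32.9, 374 and 2418 CPM in GXNI hearts, so that GXNI 1 lay within the sham range. Sarcomere and calcium handling genes were not called, such as Myh6 at -0.73 (unadjusted P = 0.021), Atp2a2 at -0.77 (unadjusted P = 0.0245) and Ttn at -0.21 (unadjusted P = 0.331). Leaving out 1 heart gave between 1 and 8 of the 26 called higher, with 1 without sham 1 or sham 2, 2 without sham 3, 3 without MIRI 1 or MIRI 3 and 8 without GXNI 1. The number called lower became 3 without MIRI 2 and was 0 without any other single heart, and it was 1 under DESeq2, with the replicate block, and with MIRI 2 and GXNI 3 both left out.

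**Figure D5:**
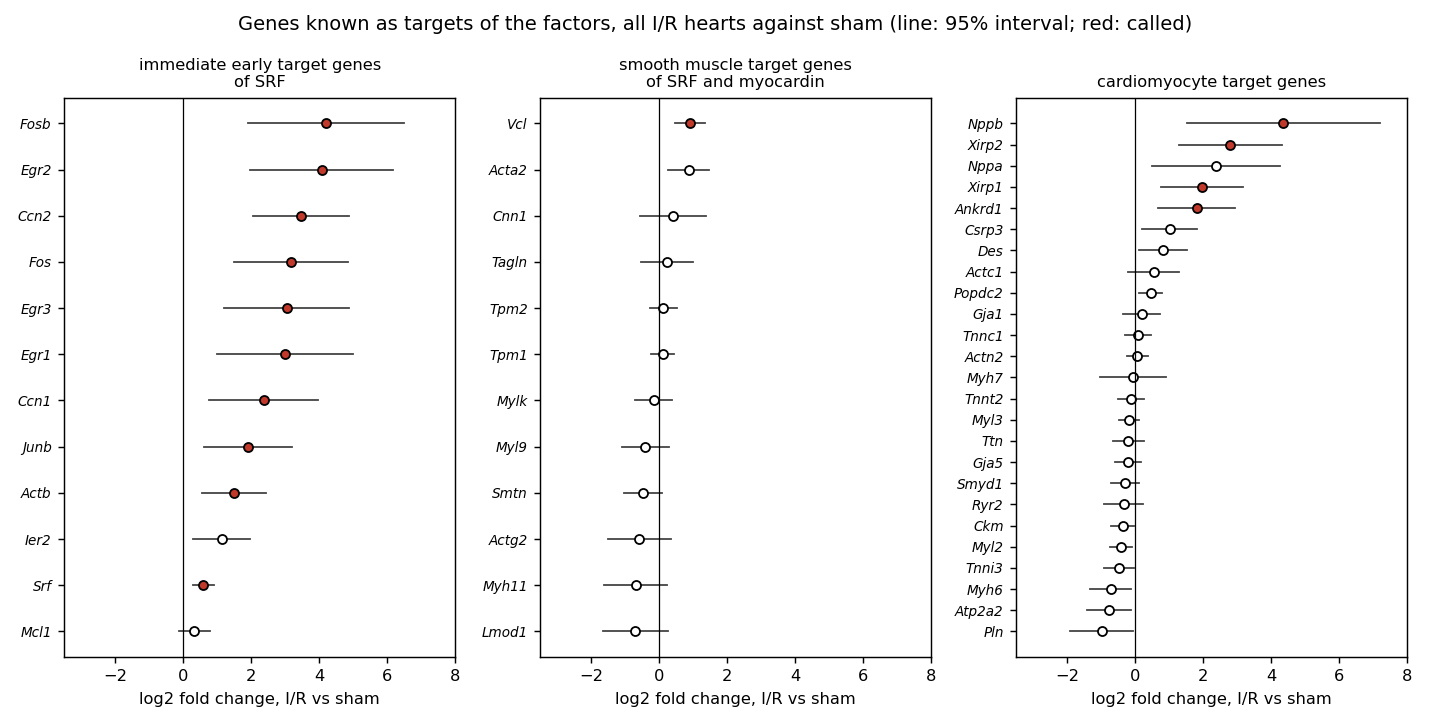
Log2 fold change in all 6 I/R hearts against 3 sham hearts (horizontal axes) by edgeR for immediate early, smooth muscle and cardiomyocyte target genes (vertical axes, in order of size), with 95% intervals as lines and called genes in red. The red points are 10 immediate early genes, Vcl among the smooth muscle targets, and Nppb, Xirp2, Xirp1 and Ankrd1 among the cardiomyocyte targets, each to the right of 0.

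Among 18 cofactors and regulators of the factors, such as Mrtfa, Mrtfb, Zfpm2, Ep300 and the class II histone deacetylases, 1 was called lower and 0 higher, beside 2.85% of all genes called lower. This was Hopx, a homeodomain-only protein that restrains SRF activity, at -0.61 (SE 0.15, unadjusted P = 0.00213, adjusted P = 0.0852, edgeR). Hopx was 124, 150 and 145 CPM in sham, 77.3, 115 and 83.4 CPM in MIRI and 107, 83.1 and 84.2 CPM in GXNI hearts, and all 6 I/R hearts were below sham. The call of Hopx was lost without any 1 of sham 2, sham 3, MIRI 1, MIRI 3, GXNI 2 or GXNI 3, so that 0 of the 18 were then called, and 2 were called lower without MIRI 2. In the GXNI group 2 cofactors, Fhl2 and Hopx, were called lower than in sham, beside 1.54% of all genes. In the MIRI group 0 were called by edgeR (2 at an unadjusted P under 0.05), beside 8.97% of all genes. Of 16 other cardiac transcription factors, 12 could be tested. Of these, 0 were called in I/R hearts by edgeR (3 at an unadjusted P under 0.05), beside 8.38% of all genes. Their median was -0.39, against 0.0077 over all genes tested. Against sham, Irx3 was called lower in the MIRI group (-0.77, unadjusted P = 0.00496, adjusted P = 0.0865, edgeR), beside 2.82% of all genes. Tbx3 was called higher in the GXNI group (0.67, unadjusted P = 0.00999, adjusted P = 0.219, edgeR), beside 2.67% of all genes. Between GXNI and MIRI 0 were called (1 at an unadjusted P under 0.05 by edgeR), beside 0.0203% of all genes. Hand1 and Isl1 had no count in any library.

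CArG boxes were also looked up in the promoters of the listed genes. They were found in 2 of the 7 immediate early genes with a promoter sequence (Egr2 and Srf) and 2 of 9 smooth muscle targets (Myl9 and Vcl). They were also found in 2 of 23 cardiomyocyte targets (Actc1 and Myl3) and 2 of 17 cofactors (Fhl2 and Hopx). Of the 27025 genes with such a sequence, 1.81% held a box. The SRF target lists hold known targets of a factor that binds this box, so these shares do not test an enrichment. The boxes of Egr2, Vcl and Hopx are shown in capitals with the bases around them, since these genes were called in I/R hearts, for comparison with the boxes of Srf above. They lie at chr10:67537484-67537513 and chr10:67537787-67537816 on the plus strand for 2 starts of Egr2, chr14:20929161-20929190 on the plus strand for Vcl and chr5:77115187-77115216 on the minus strand for Hopx (RefSeq, GRCm38.p6).

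Egr2, upstream start: cggatcttctCCTTTTTTGGaaagtctcgg

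Egr2, downstream start: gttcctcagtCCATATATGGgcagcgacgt

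Vcl: cccactatgcCCTTATAAGGagcgccccgc

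Hopx: taacccgagtCCAAATAAGGaagctgggga

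Egr2, Vcl and Srf were called higher and Hopx lower, so the genes with this element in the window did not share a direction. Myl9 at -0.41 (unadjusted P = 0.212), Actc1 at 0.54 (unadjusted P = 0.14), Myl3 at -0.19 (unadjusted P = 0.174) and Fhl2 at -0.67 (unadjusted P = 0.0168) carried the box and were not called in I/R hearts.

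Among the members themselves, the profiles over the 9 libraries were most alike for Mef2a and Mef2c, whose centred log2 CPM differed by 0.14 per library on average, and least alike for Tbx5 and Srf, at 0.86. Over 15206 other genes, the one nearest to Srf was Minpp1, an inositol polyphosphate phosphatase (0.074), and the one nearest to Tbx5 was Mapk10, the kinase JNK3 (0.099). The nearest genes of the others were Amigo3 for Gata4, Snrpn for Nkx2-5, Cst3 for Mef2a, Fam174b for Mef2c, Gtpbp1 for Mef2d, Dctn6 for Tbx20 and Dzip3 for Myocd, at 0.046 to 0.10, while the nearest gene of Hand2, 4931414P19Rik, differed by 0.22. These values describe likeness over libraries that share depth and tissue makeup.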

How the data were processed

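RNA of heart tissue from 3 sham, 3 MIRI and 3 GXNI mice was sequenced, and each group consisted of independent animals. The paper's methods name heart tissue without saying which part of the heart was taken. Reads with adapters, poly-N stretches or low quality were discarded by the authors, who used HISAT2 with mm10 for alignment and featureCounts for counting, and the deposited values are these raw counts, without normalization. Tool versions, annotation release and strand setting were not given in the sources used here. Of 54532 gene identifiers, 54495 were matched to GENCODE M21 (GRCm38), which gave symbols, coordinates and merged exon lengths. 0 columns of other samples were used.

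Counts were fitted over all genes with edgeR 4.0.16 (R 4.3.3), with TMM normalization, filterByExpr and no covariates in the quasi-likelihood F test, on the libraries of each comparison. Adjusted P-values are Benjamini-Hochberg values over all genes tested, which numbered 15207 for I/R against sham, 14644 for MIRI against sham, 14695 for GXNI against sham and 14762 for GXNI against MIRI. Calls needed a fold change of 1.5 or more with an unadjusted P of 0.01 or less, thresholds taken from the paper's methods. CPM values use TMM factors over the 9 libraries, and log2 CPM a prior count of 0.5. Exact permutation tests were two-sided. The smallest P they can give is 0.02381 for 6 hearts against 3 and 0.1 for 3 against 3. Motifs were searched on both strands.

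Groups, and the number of each mouse, follow the deposited labels. The members and gene lists were chosen with earlier results of these data known. All 10 members are named, with up to 3 called genes per direction and list that changed most in I/R hearts, and the gene nearest to each member in profile. Other genes were named after their values were seen, and 1 listed gene that counts among the cardiomyocyte targets is not reported here by itself. The alternatives were DESeq2 1.42.0, RLE normalization, no filter, an adjusted P of 0.05, all groups in 1 fit, a block for the replicate number, each library left out and MIRI 2 and GXNI 3 left out together. Counts over the gene lists under these alternatives were added after seeing the data. On simulated counts for I/R against sham, 200 of 15207 genes were changed by 2 log2 units, and edgeR called 195 of them. For MIRI against sham it called 197 of 200 among 14644 genes. Smaller changes, such as those of the members, were not simulated. Every pair of libraries within a group differed by more than sampling noise, with a smallest chi-square per degree of freedom of 14.4. Libraries of different groups were not compared in this way.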

Additional observations from a re-analysis of the deposited data

Results flagged for a closer look

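In 23 sets of 6 I/R values for the members, the highest or lowest heart was compared with the others by Dixon's criterion, which chance meets in about 1 of 20 sets, and 1 value stood out. Relative to the mean of the cardiomyocyte markers, Mef2a in GXNI 1 was at -3.995 on the log2 scale, above the other 5 I/R hearts, which lay between -4.56 and -4.36. The Mef2a level in GXNI 1 was 193 CPM, close to the 194 CPM of MIRI 2, while the mean log2 CPM of the markers was 11.6 in GXNI 1 and 11.96 in MIRI 2. In GXNI 1 the summed mesothelial markers, all 6 of them detected, were at 76.1 CPM, against 8.94 to 25.1 CPM in the other 8 hearts, and their part in the Mef2a value was not tested.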

How the results depend on the processing

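The number of members called in I/R hearts, 1, became 0 at an adjusted P of 0.05 by edgeR. It also became 0 without a filter on low counts, where Srf was at 0.58, just under the fold threshold. The number was the same under DESeq2, RLE normalization and 3 groups in the fit. In MIRI against sham, 1 became 0 at an adjusted P of 0.05 by edgeR. In GXNI against MIRI, 0 became 1 (Tbx5) with MIRI 2 and GXNI 3 left out. With 1 heart left out, the count ranged from 0 to 1 in I/R hearts, from 0 to 2 in MIRI against sham and from 0 to 2 in GXNI against sham, and was 0 throughout in GXNI against MIRI. The cause of these changes was not tested.

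With MIRI 2 and GXNI 3 both left out, the sign turned for Tbx20 in I/R hearts (-0.051) and, in GXNI against MIRI, for Nkx2-5 (0.12), Mef2a (0.29), Mef2c (0.23), Mef2d (0.13) and Tbx20 (0.12), none of which was called. This pair was chosen with earlier results of these data known, in which the labels of both libraries were in doubt, and an exchange of these labels was not tested. With 1 heart left out, the log2 fold change between I/R and sham ranged from -0.057 to 0.71 for Hand2, from -0.095 to 0.14 for Tbx20, from -0.99 to -0.66 for Tbx5 and from 0.53 to 0.65 for Srf. Between MIRI and sham it ranged from -0.15 to 0.67 for Hand2 and from -0.11 to 0.35 for Tbx20. Between GXNI and sham it ranged from -0.083 to 0.22 for Gata4, from -0.061 to 0.75 for Hand2, from -0.0067 to 0.27 for Nkx2-5 and from -0.21 to 0.022 for Tbx20. Between GXNI and MIRI it ranged from -0.23 to 0.40 for Hand2, from -0.26 to 0.19 for Mef2a, from -0.31 to 0.11 for Mef2c, from -0.12 to 0.059 for Mef2d, from -0.22 to 0.15 for Myocd, from -0.38 to 0.034 for Nkx2-5, from -0.44 to 0.042 for Tbx20 and from -0.22 to 0.80 for Tbx5.

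Relative to cardiomyocyte markers, the median in place of the mean gave 0.47 for Gata4, -0.67 for Tbx5 and 0.27 for Tbx20. With 1 heart left out these relative differences ranged from 0.32 to 0.57 for Gata4, from 0.19 to 0.87 for Hand2, from -0.0090 to 0.11 for Mef2a, from -0.17 to -0.059 for Mef2c, from 0.063 to 0.15 for Mef2d, from 0.45 to 0.72 for Myocd, from 0.35 to 0.56 for Nkx2-5, from 0.72 to 0.87 for Srf, from 0.10 to 0.31 for Tbx20 and from -0.84 to -0.57 for Tbx5. With a sham heart left out, the exact test cannot reach 0.05. The difference in the MEF2 share ranged from -1.44 to 1.19 percentage points for Mef2a, from -2.38 to -1.34 for Mef2c and from 0.14 to 2.85 for Mef2d, and per kilobase it was -0.165 for Mef2a.

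The correlation of same-numbered deviations ranged from -0.445 (MIRI 1 and GXNI 1) to 0.701 (MIRI 3 and GXNI 3). Differently numbered hearts reached -0.77 (MIRI 2 and GXNI 3) and 0.731 (MIRI 2 and GXNI 1), so these values cannot decide whether replicate numbers pair the mice. With the replicate block, 1 member was called in I/R hearts, 1 in MIRI against sham, 0 in GXNI against sham and 0 in GXNI against MIRI, with Srf at 0.59, 0.66, 0.51 and -0.15 and Tbx5 at -0.90, -1.03, -0.79 and 0.22. With 3 mice a group, the intervals of Tbx5 and Hand2 were wide, while all members were counted far above 3 counts.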
